A study of Homo sapiens with 6 samples.

Results

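The baseline transcriptome of C4-2 cells was read from the 2 control libraries of a study of EZH2 inhibition and depletion. C4-2 is an established human prostate cancer line derived from LNCaP. The members are the genes whose FPKM values (fragments per kilobase of transcript, scaled to the mapped fragments of the library) in the 2 control libraries lie within 2-fold of each other after 1 FPKM is added to both. They number 26623 of the 26755 names kept, no treated library was used, and the level of a member is the mean of both values. The first control received vehicle, the solvent control for GSK126 and astemizole, and the second received lentivirus with a scramble shRNA, the control for the EZH2 hairpins. Both were grown in RPMI-1640 with serum at passages 10 to 15 in 6-well plates, and polyadenylated RNA was sequenced. The solvent, the time in culture and the viral dose are not given in the labels. There is 1 library per control condition, the conditions differ, and no value has a replicate, so no test or standard deviation is given. Where a gene has 2 values below, vehicle comes first and the shRNA control second, and both are FPKM as the authors deposited them. FPKM is scaled to length, so levels of different genes can be set in order. The number of reads behind a value is unknown.

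Luminal cells of the prostate are secretory epithelial cells. They release proteases and other proteins into seminal fluid, carry keratins 8 and 18, and depend on androgen. The pioneer factor FOXA1, which opens chromatin, and the homeodomain factor HOXB13 belong to their transcriptional circuit. Basal cells, which lie under the luminal layer, carry p63 and keratins 5 and 14, and neuroendocrine cells carry synaptophysin and chromogranins. LNCaP came from a metastasis of an androgen-responsive adenocarcinoma, and C4-2 was derived from it as a line that grows at castrate androgen levels.

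The control libraries were compared first. On FPKM + 1, 22 names (0.0822% of the 26755) were at least 2-fold higher with the shRNA control and 110 (0.411%) were at least 2-fold lower, or 0.493% in either direction. Of the 12376 names at 1 FPKM or more in either library, 1.07% lay outside the limit. Across the 11732 members at 1 FPKM or more in both libraries, Pearson's r of log2(FPKM + 1) was 0.990, which is a description across genes that share libraries and lengths, not a test. The median log2 ratio of the shRNA control over vehicle was -0.10 for these members and -0.30 for the 1003 members with a mean of 100 FPKM or more. Highly expressed genes therefore had, at the median, somewhat lower FPKM in the shRNA control. The FPKM of all names kept summed to 794641 with vehicle and 659969 with the shRNA control. Ratios and counts of higher and lower genes, here and below, were not corrected for this difference in sums. The member nearest the limit with a mean of 5 FPKM or more was the mitotic kinase PLK1 at 71.3 and 35.3 FPKM, and the nearest gene outside it was the cell cycle phosphatase CDKN3 at 104 and 51.1 FPKM. PHGR1, at 21.3 and 42.5 FPKM, was the member nearest the limit in the other direction. Next outside came JUND, at 97.8 and 48.2 FPKM. Among named genes with a mean of 5 FPKM or more, 34 of 8545 were outside, 8 of them higher and 26 lower with the shRNA control. C1orf112 was the farthest, at 289.9 and 7.44 FPKM, followed by SPIN2B at 11.2 FPKM with vehicle and listed at 0 with the shRNA control. These 132 names are no members and have no baseline level here.

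One set of genes of another tissue separated the libraries. Of 20 liver genes, 19 were higher with vehicle. Among all expressed members, 65.2% were lower with the shRNA control by any amount, but 0 of the 20 liver genes are in that class. That share is therefore not a like background for this list. The list summed to 24.5 FPKM with vehicle and 2.68 with the shRNA control. The serum protein gene ALB was at 4.18 and 0.119 FPKM, the apolipoprotein gene APOA1 at 4.15 and 1.18 FPKM, and the fetal serum protein gene AFP at 3.16 FPKM with vehicle and listed at 0 with the shRNA control. In all, 11 of the 20 were listed at 0 with the shRNA control against 1 with vehicle. Of the 20, 6 were outside the 2-fold limit, against 0.493% of all names kept. The vehicle library is therefore the one with liver transcripts at a low level, and statements on absent lineages are given for both libraries. The cause of this difference and its part in the values below were not tested. In bulk RNA, few cells with much of a transcript and many cells with little of it cannot be told apart.

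**Figure D1:**
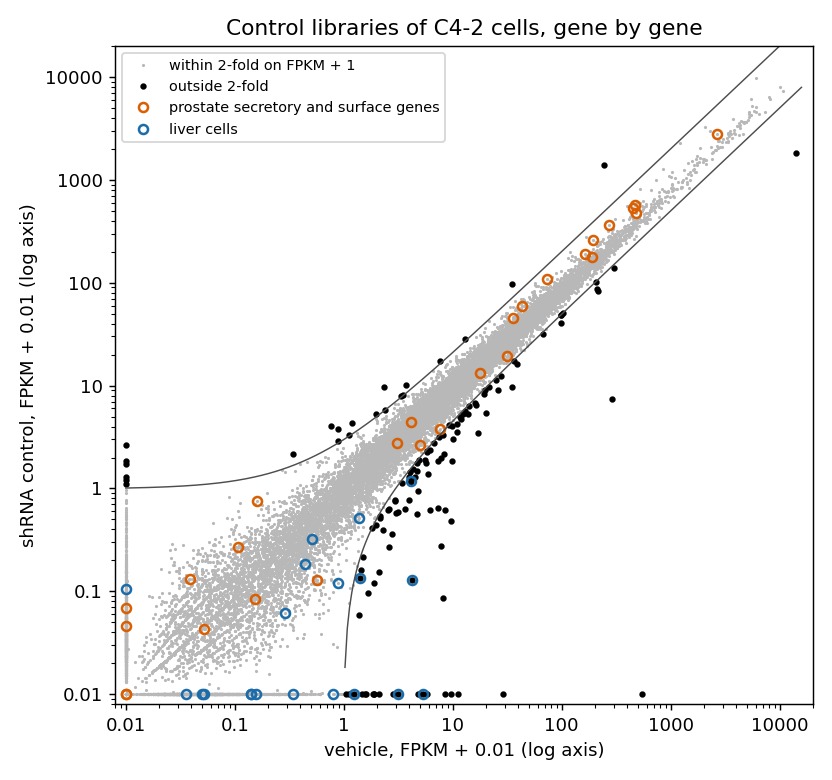
FPKM + 0.01 of every gene in the vehicle library (x axis) and the shRNA control library (y axis), both on log axes; grey points are members, black points lie outside the 2-fold limit drawn as lines on FPKM + 1, and circles mark prostate secretory and surface genes and liver genes. Points at 0.01 are listed at 0. All 27 measured prostate genes lie within the limit, as do 14 of 20 liver genes and 26623 of all 26755 names. By any amount, 19 of the 20 liver genes are higher with vehicle.

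Members were sorted by level. A member at 1 FPKM or more in both libraries is called expressed, one under 0.1 FPKM in both is called silent, and the rest are called low. Of all names kept, 43.8% were expressed, 40.4% silent and 15.2% low. Among the 18805 protein-coding names, 57.0% were expressed (10728 genes), 28.8% were silent (5418 genes), 13.8% were low and 0.378% lay outside the limit, and the median mean level was 3.09 FPKM. These shares are the background against which the counts in each list below are read. Expressed protein-coding members had a median of 13.7 FPKM, with quartiles of 5.59 and 34.8. Expressed long noncoding RNAs, 264 in number, had a lower median of 4.41 FPKM. A mean of 10 FPKM or more was reached by 6565 members, 100 FPKM by 1003 and 1000 FPKM by 105. Of the silent members, 8028 were listed at 0 in both libraries, and an exact 0 in such a table may also be a failed estimate.

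A small set of genes took a large share of the summed FPKM. The 10 highest members held 9.55% of the sum over all members, the 100 highest 41.9% and the 1000 highest 72.1%. Ribosomal protein genes accounted for 63 of the 100 highest members and 29.5% of the sum, led by RPL41 at 10833 and 7366 FPKM, RPS18 at 10138 and 7905 FPKM and RPS27 at 7897 and 6382 FPKM. Many of them have processed pseudogenes, to which reads can be assigned in part. Their median log2 ratio of the shRNA control over vehicle was -0.38 within the 100. A further 7 of the 100 act in translation or beside the ribosome, among them the elongation factor EEF1A1 at 5428 and 4296 FPKM and TPT1, the gene of translationally controlled tumour protein, at 4199 and 3567 FPKM. The 4 glycolysis genes among the 100 had a median log2 ratio of 0.09. GAPDH at 3734 and 3901 FPKM, the enolase ENO1 at 1853 and 2024 FPKM and ALDOA at 1018 and 1202 FPKM were slightly higher with the shRNA control, and TPI1 at 1084 and 1037 FPKM was slightly lower. Of the 100, 7 had names that could not be resolved to a RefSeq symbol, and they held 4.66% of the sum. BC018860, TVAS5, OK/SW-cl.16 and AD 1 were among them, at ranks 3, 5, 7 and 10 of all members. The highest, BC018860, stood at 6121 and 9755 FPKM. An entry named cytochrome b was also among them, at rank 50 with 2315 and 3005 FPKM.

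KLK3 was the only prostate secretory gene among the 100 highest members. It encodes prostate-specific antigen, a serine protease that liquefies semen, and stood at 2675 and 2796 FPKM. With ribosomal protein genes and unresolved names left aside it ranked just below EEF1A1, TPT1 and GAPDH. Next in that order came MIF, the gene of a secreted cytokine, at 2745 and 2374 FPKM. The values of KLK3 and MIF overlap, so their order is not firm. Other high members were the iron storage subunit FTH1 at 2104 and 1422 FPKM, the chaperones HSPA8 at 1737 and 1710.2 FPKM, HSP90AA1 at 1573 and 1513 FPKM and HSP90AB1 at 1454 and 1459 FPKM, and ODC1, the entry enzyme of polyamine synthesis, at 1274 and 958 FPKM. GDF15, a secreted growth factor of the TGF-beta superfamily, stood at 963 and 1096 FPKM, and the creatine kinase CKB at 1013 and 1056 FPKM.

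The prostate secretory and surface list ranged from very high to silent, with a median of 5.72 FPKM. Of 27 measured members, 17 were expressed, 5 low and 5 silent, a share expressed of 63.0% against 57.0% of protein-coding genes, which is near that background. Among the proteases, KLK2 followed KLK3 at 477 and 473 FPKM and KLK4 at 163 and 191 FPKM. The membrane protease TMPRSS2 stood at 269 and 361 FPKM. Surface proteins were also high. FOLH1, the gene of prostate-specific membrane antigen, stood at 466 and 569 FPKM. The STEAP family genes STEAP1 and STEAP2 were at 191 and 178 FPKM and at 72.5 and 109 FPKM. The transporter gene SLC45A3 was at 35.5 and 45.8 FPKM. The secreted proteins SPON2 at 447 and 537 FPKM and AZGP1, the zinc alpha-2-glycoprotein gene, at 195 and 259 FPKM belonged to the same upper range. The cation channel gene TRPM8 stood at 31.2 and 19.2 FPKM. FOLH1 has a close paralog, FOLH1B, and the assignment of reads between them is uncertain.

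Several other genes of the secretory and surface list were near the lower limit, low or silent. ACPP, the prostatic acid phosphatase gene, was at 4.09 and 4.40 FPKM, and MSMB, which encodes the abundant seminal protein beta-microseminoprotein, at 3.07 and 2.78 FPKM. Both are expressed by the definition used here, but each stood under 5 FPKM. The stem cell antigen PSCA was at 4.97 and 2.63 FPKM and the transmembrane protein TMEFF2 at 7.71 and 3.74 FPKM. The semenogelin genes, whose products are made by the seminal vesicle, were low, SEMG1 at 0.559 and 0.120 FPKM and SEMG2 at 0.144 and 0.0742 FPKM. NPY and the olfactory-type receptor gene OR51E2 were listed at 0 in both libraries, and KLK11 stood at 0.0426 and 0.0332 FPKM.

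The promoters of KLK3 and KLK2 are shown because both genes are highly expressed genes induced by androgen that lie side by side. The windows run from 250 bases before to 50 after the RefSeq transcription start, on the plus strand of GRCh38.p14. KLK3 is at chr19:50854665-50854964 and KLK2 at chr19:50873189-50873488. Capitals mark the longest run of letters that both windows share.
KLK3: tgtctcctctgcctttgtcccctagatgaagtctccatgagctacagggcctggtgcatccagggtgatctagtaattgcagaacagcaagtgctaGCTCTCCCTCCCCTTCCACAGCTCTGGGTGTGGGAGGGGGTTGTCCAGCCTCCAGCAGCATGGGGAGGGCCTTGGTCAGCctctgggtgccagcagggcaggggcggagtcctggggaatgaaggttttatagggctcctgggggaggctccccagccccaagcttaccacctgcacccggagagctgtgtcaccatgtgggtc
KLK2: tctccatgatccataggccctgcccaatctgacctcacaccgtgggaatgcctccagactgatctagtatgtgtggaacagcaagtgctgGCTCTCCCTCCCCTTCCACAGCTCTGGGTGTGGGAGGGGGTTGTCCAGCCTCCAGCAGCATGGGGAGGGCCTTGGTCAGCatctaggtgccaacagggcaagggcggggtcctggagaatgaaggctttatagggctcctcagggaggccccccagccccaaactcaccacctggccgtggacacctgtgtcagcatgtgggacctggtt
At the best ungapped offset, 225 of 294 aligned bases (76.5%) were identical between the windows. The longest shared run was 80 bases, and it began 154 bases before the start of KLK3 and 160 before that of KLK2. Likeness of sequence is a description of letters and says nothing of which factor binds. The genes are also similar in their transcripts, so the division of reads between KLK3 and KLK2 is uncertain.

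The kallikrein cluster on chromosome 19 was expressed at one end. In chromosomal order, KLK1 stood at 5.58 and 3.12 FPKM, KLK15 at 17.7 and 13.3 FPKM, then KLK3, KLK2 and KLK4 at the levels given above. The next 9 genes, from KLK5 to KLK13, lay between 0 and 1.05 FPKM in both libraries. KLK5 was listed at 0 with vehicle and stood at 0.0307 FPKM with the shRNA control, and KLK9 was listed at 0 in both. KLK14, at the far end, was at 2.57 and 2.68 FPKM. Of the 15 genes, 6 were expressed, 5 low and 4 silent, and KLK3 alone held 80.2% of the summed mean FPKM of the cluster. KLK5, KLK7 and their neighbours are proteases known from skin. These clusters, like those of the keratins and HOXB genes below, were chosen after values had been seen.

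Keratins gave a similar contrast within a cluster. On chromosome 12, the type II keratin KRT8 stood at 269 and 285 FPKM and its partner KRT18, the type I keratin that lies beside it, at 479.5 and 425 FPKM. These pair into the intermediate filaments of simple epithelia, and both genes have many processed pseudogenes. The other 25 keratin genes of that cluster were all under 0.5 FPKM in both libraries, with 21 silent and 4 low. The basal keratin KRT5 was at 0.0211 FPKM with vehicle and listed at 0 with the shRNA control, and KRT7, a keratin of other simple epithelia, at 0.0544 and 0.0701 FPKM. On chromosome 17, 25 of 28 keratin genes were silent. KRT10, a keratin of differentiated epidermis, stood at 20.8 and 15.4 FPKM, KRT14 at 4.64 and 3.23 FPKM and KRT19 at 2.87 and 1.96 FPKM. KRT15 and KRT17 were listed at 0 in both.

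**Figure D2:**
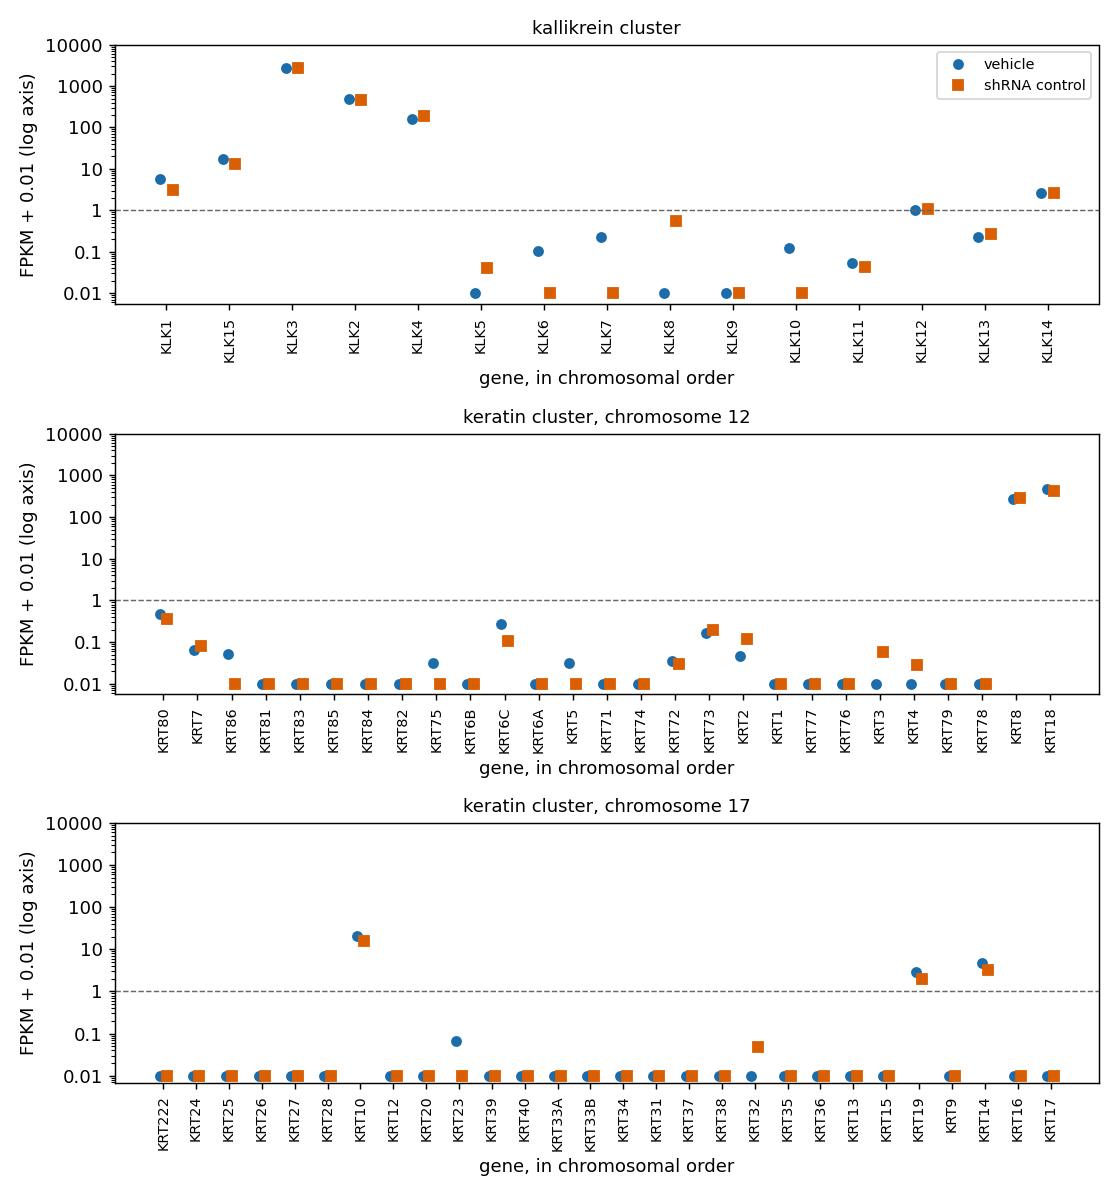
FPKM + 0.01 (y axis, log) of each kallikrein and keratin gene in chromosomal order (x axis), for the vehicle library (circles) and the shRNA control library (squares); points at 0.01 are listed at 0 and the dashed line marks 1 FPKM. KLK3, KLK2 and KLK4 stand above 100 FPKM beside 9 genes at or below 1.05, and KRT8 and KRT18 are the only keratins of the chromosome 12 cluster above 0.5.

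The luminal label was checked against basal markers. Of 15 basal prostate genes, 4 were expressed, 3 low and 8 silent, and the share expressed was 26.7%, against 57.0% of protein-coding genes. TP63, the basal master regulator, was listed at 0 with vehicle and at 0.00802 FPKM with the shRNA control. The adhesion receptor CD44 was at 0.0316 FPKM with vehicle and listed at 0 with the shRNA control. The 4 expressed genes were ITGA6 at 5.90 and 6.69 FPKM, KRT14, DST at 2.62 and 1.47 FPKM and ITGB4 at 1.07 and 1.27 FPKM, each under 7 FPKM. Luminal markers outside the keratins included the adhesion molecule EPCAM at 115 and 88.9 FPKM and the peptidase DPP4 at 25.7 and 31.8 FPKM, while PROM1 was listed at 0 in both. Of the 9 luminal genes, 6 were expressed, 1 was low and 2 were silent, with a median of 2.84 FPKM. CEACAM1 was the low gene, at 0.280 and 0.0370 FPKM, and CD24 and KRT19 were expressed at under 4 FPKM, CD24 at 3.61 and 2.06 FPKM. The basal keratin gene KRT14 was higher than KRT19 in both libraries. The markers thus did not all fall on the luminal side, although KRT8, KRT18 and EPCAM were high and TP63, KRT5 and CD44 were at or near 0.

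Epithelial junction genes were nearly all expressed. Of 30 measured, 28 were expressed, 2 were low and none was silent, with a median level of 41.3 FPKM. The tight junction claudins CLDN4 at 199.99 and 159 FPKM, CLDN3 at 151 and 121 FPKM and CLDN7 at 139 and 114 FPKM led together with SPINT2, a membrane-bound protease inhibitor, at 269 and 211 FPKM. CDH1, the gene of E-cadherin, stood at 54.6 and 75.4 FPKM, and its cytoplasmic partners CTNNB1 (beta-catenin) and CTNNA1 (alpha-catenin) stood at 109 and 113 FPKM and at 97.0 and 103 FPKM. Plakoglobin, which joins both adherens junctions and desmosomes, had JUP at 122 and 113 FPKM. ESRP1, a splicing regulator of epithelial exons, was at 25.6 and 23.7 FPKM. CLDN1, another tight junction claudin, was low at 0.184 and 0.0210 FPKM.

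Mesenchymal genes were mostly low or silent. Of 14, 4 were expressed, 3 low and 7 silent, with a median of 0.0904 FPKM. FN1, the fibronectin gene, was by far the highest at 33.5 and 36.9 FPKM. Vimentin (VIM) stood at 3.28 and 3.01 FPKM, and the repressor of E-cadherin SNAI1 at 2.22 and 2.05 FPKM. ZEB1, another such repressor, was at 0.0262 and 0.00604 FPKM, and ZEB2, TWIST2, MMP2 and CDH11 were listed at 0 in both libraries. N-cadherin (CDH2) was at 0.00951 FPKM with vehicle and listed at 0 with the shRNA control.

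The transcription factors of the prostate lineage were expressed in 15 of 17 cases, with a median of 64.8 FPKM. The ETS factor EHF stood at 209 and 227 FPKM, HOXB13 at 156 and 133 FPKM, and FOXA1 at 105 and 114 FPKM. SPDEF, an ETS factor of secretory epithelia, was at 113 and 112 FPKM and GATA2 at 91.9 and 67.2 FPKM. XBP1 and CREB3L4, bZIP factors that drive secretory capacity, were at 182 and 143 FPKM and at 109.8 and 109 FPKM. GATA3, which marks breast and urothelium, was at 0.0278 FPKM with vehicle and listed at 0 with the shRNA control. Within the HOXB cluster, HOXB13 held 92.2% of the summed mean FPKM of 10 genes; HOXB7 came next at 9.62 and 5.80 FPKM, and HOXB1 and HOXB4 were listed at 0 in both.

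The ETS family was examined because some members are activated by gene fusion in prostate cancer. ERG was listed at 0 with vehicle and at 0.00753 FPKM with the shRNA control, and FLI1 at 0.021 FPKM and 0. ETV1, which LNCaP cells are known to carry in rearranged form and to express, was listed at 0 with vehicle and at 0.00572 FPKM with the shRNA control. That value goes against what is known of the parental line, and the reason was not tested. ETV4 was at 0.161 FPKM and 0, and ETV5 at 0.134 and 0.141 FPKM. Besides EHF and SPDEF, the highest ETS genes were ELK1, a factor activated by MAP kinases, at 21.9 and 19.1 FPKM and ELF5, a factor of mammary and lung epithelium, at 21.4 and 18.5 FPKM. Of 24 members in this list, 14 were expressed (58.3%, against 57.0% of protein-coding genes), 6 low and 4 silent.

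Nuclear receptors are transcription factors that bind hormones, vitamins or metabolites. Of the 48 human members, 24 were expressed (50%, against 57.0% of protein-coding genes), 8 were low and 16 silent. Orphan receptors headed the order, with ESRRA, a regulator of mitochondrial genes, at 101 and 71.0 FPKM and NR2F6 at 95.2 and 63.8 FPKM. ESRRA was above NR2F6 in both libraries, by a small margin that has no replicate. The oxysterol receptor NR1H2 stood at 32.5 and 22.5 FPKM, and the common heterodimer partner RXRA at 25.9 and 22.9 FPKM. NR2F2 was at 23.3 and 16.3 FPKM. Of these, NR1H2 and RXRA changed order between the libraries and cannot be ranked. RXRA was above NR2F2 in both libraries, again without a replicate.

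Among the steroid receptors described here, 3 were silent. The glucocorticoid receptor gene NR3C1 was at 0.0158 and 0.00675 FPKM, the progesterone receptor gene PGR at 0.0547 and 0.0343 FPKM, and the oestrogen receptor gene ESR1 was listed at 0 in both libraries. ESR2 was low at 0.0671 and 0.101 FPKM. The mineralocorticoid receptor gene NR3C2 stood near the limit at 1.48 and 0.996 FPKM. Receptors for other ligands were expressed at intermediate levels, with the vitamin D receptor VDR at 9.06 and 7.38 FPKM, RARG, a retinoic acid receptor, at 13.7 and 11.7 FPKM and the thyroid hormone receptor THRA at 11.6 and 14.04 FPKM. RARB, the retinoic acid receptor often reported as methylated in cancer, was low at 1.34 and 0.755 FPKM.

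**Figure D3:**
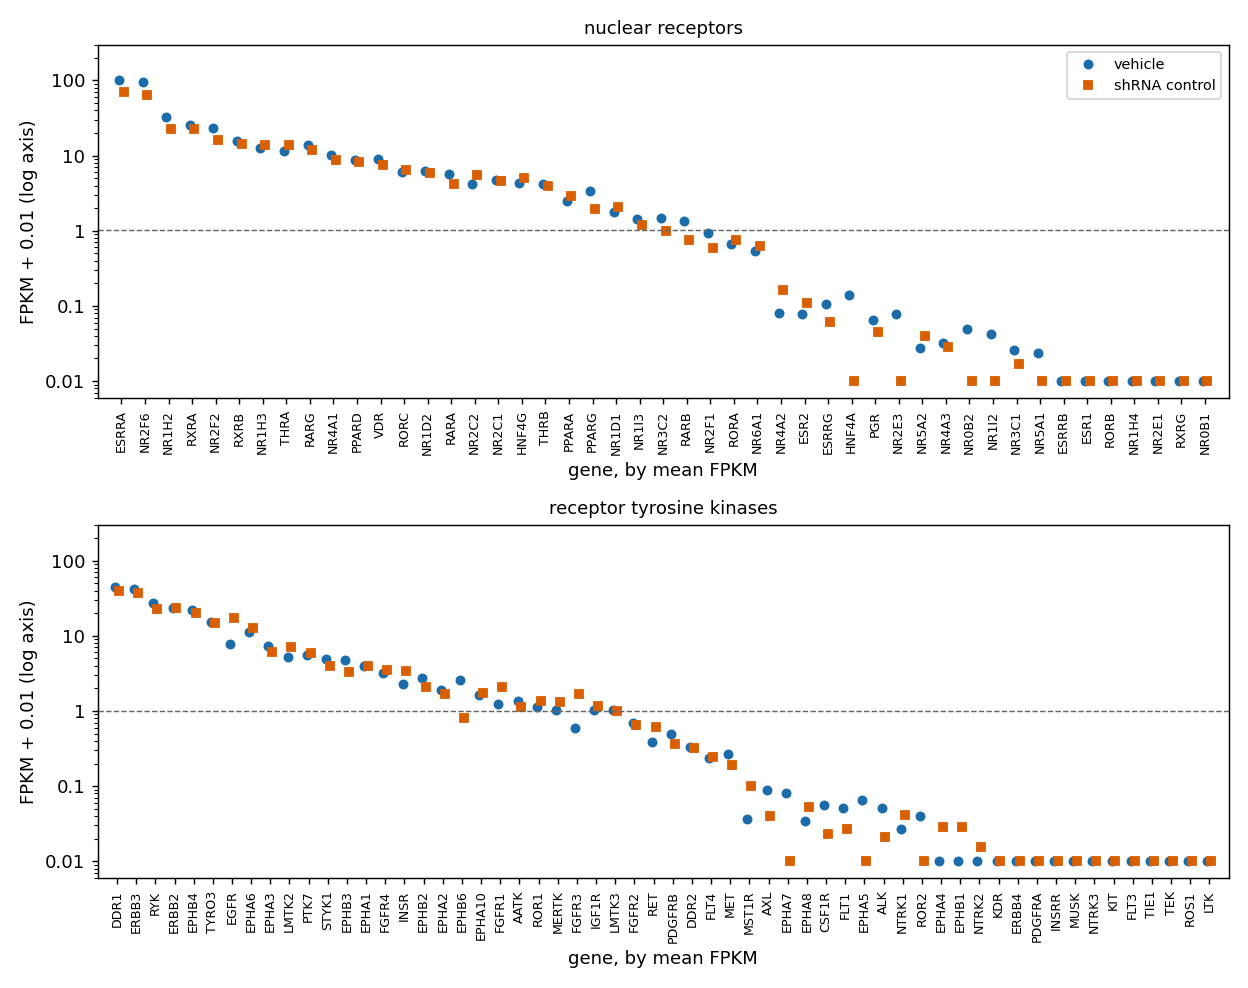
FPKM + 0.01 (y axis, log) of nuclear receptor genes and 58 receptor tyrosine kinase genes ordered by mean FPKM (x axis), for the vehicle library (circles) and the shRNA control library (squares); points at 0.01 are listed at 0 and the dashed line marks 1 FPKM. ESRRA and NR2F6 are the highest nuclear receptor genes drawn, and NR3C1 and ESR1 lie near or at the floor.

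Enzymes that make and inactivate androgens were uneven. Of 32 genes of androgen synthesis and inactivation, 10 were expressed (31.25%, against 57.0% of protein-coding genes), 8 low, 13 silent and 1 outside the limit. SRD5A1, the 5-alpha reductase that turns testosterone into dihydrotestosterone, stood at 12.3 and 11.9 FPKM, while SRD5A2, the isoenzyme of the normal prostate, was listed at 0 in both. RDH11, a retinal reductase of prostate epithelium, was at 119 and 198 FPKM and the multifunctional peroxisomal enzyme HSD17B4 at 118 and 107 FPKM. CYP17A1, the enzyme that commits steroids to androgens, was at 0.0243 FPKM with vehicle and listed at 0 with the shRNA control. AKR1C3, which makes testosterone from androstenedione, was low at 0.204 and 0.140 FPKM. The glucuronidation enzymes were low or silent, UGT2B15 at 0.372 and 0.134 FPKM and UGT2B17 at 0.129 FPKM with vehicle and listed at 0 with the shRNA control. HSD17B10 lay outside the limit at 208 and 102 FPKM.

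The receptor tyrosine kinases were expressed in 23 of 58 cases (39.7%, against 57.0% of protein-coding genes), with 25 silent. The collagen receptor DDR1 led at 44.8 and 39.5 FPKM, followed by ERBB3, a neuregulin receptor, at 41.5 and 37.6 FPKM, RYK, a Wnt receptor, at 27.0 and 22.4 FPKM and ERBB2 at 23.3 and 23.4 FPKM. DDR1 was above ERBB3 in both libraries, by a small margin that has no replicate. The order of RYK and ERBB2 differed between the libraries and cannot be given. EGFR differed between the controls, at 7.71 and 17.4 FPKM, and lies outside the limit. The insulin receptor INSR stood at 2.31 and 3.44 FPKM and IGF1R at 1.02 and 1.16 FPKM. MET, the receptor for hepatocyte growth factor, was low at 0.257 and 0.181 FPKM, and AXL was silent at 0.0790 and 0.0301 FPKM. KIT, KDR and PDGFRA were among 12 genes listed at 0 in both libraries.

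Of the 4 Janus kinases that act under the cytokine receptors, TYK2 and JAK2 were expressed, at 12.1 and 11.7 FPKM and at 2.22 and 2.27 FPKM. JAK1 lay just below the limit, at 0.979 and 0.935 FPKM, and JAK3, a kinase of blood cells, was silent at 0.0686 and 0.0131 FPKM. LNCaP cells are known to lack JAK1 function. The type I and type II interferon receptor chains were expressed, IFNAR1 at 13.4 and 14.8 FPKM, IFNAR2 at 9.04 and 6.46 FPKM, IFNGR1 at 13.6 and 11.9 FPKM and IFNGR2 at 14.2 and 15.7 FPKM. IFNLR1, the type III chain, was listed at 0 in both. IL6R, the interleukin-6 receptor, was at 20.5 and 18.9 FPKM and its signalling partner IL6ST at 8.05 and 9.29 FPKM. Of the transcription factors they act through, STAT3 was at 31.7 and 38.0 FPKM and STAT6 was low at 0.208 and 0.223 FPKM. Of 45 genes in this list, 24 were expressed (53.3%, against 57.0% of protein-coding genes), 8 low and 13 silent.

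For the TGF-beta and BMP ligands, 8 of 14 receptor genes were expressed, none above 11 FPKM. That is 57.1%, against 57.0% of protein-coding genes, and so at the background. TGFBR1 was at 4.47 and 4.69 FPKM, but TGFBR2, the chain that binds the ligand first, was below 1 FPKM at 0.739 and 0.684 FPKM. BMPR2 stood at 6.42 and 10.5 FPKM and BMPR1A at 5.18 and 5.59 FPKM. The Notch, Wnt and Hedgehog receptors were expressed in 15 of 22 cases, or 68.2% against the same 57.0%. They were led by FZD6 at 21.0 and 19.9 FPKM and the Wnt coreceptor LRP5 at 16.0 and 15.1 FPKM. NOTCH3 was at 8.70 and 11.9 FPKM and the Hedgehog transducer SMO at 6.64 and 7.42 FPKM, while LGR5 was listed at 0 in both.

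Among death and TNF receptors, 10 of 21 were expressed (47.6%, against 57.0% of protein-coding genes). TNFRSF19 stood above the others at 165 and 179 FPKM, and LTBR, the lymphotoxin beta receptor, followed at 52.0 and 47.3 FPKM. The TRAIL receptor TNFRSF10B was at 35.4 and 35.9 FPKM and its decoy TNFRSF10D at 17.5 and 24.0 FPKM. FAS was lower, at 3.37 and 1.92 FPKM. TNFRSF1B, the second TNF receptor, was near 0.1 at 0.0828 and 0.112 FPKM.

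Of 71 G protein-coupled receptors, 28 were expressed (39.4%, against 57.0% of protein-coding genes), 20 low and 23 silent. The highest was S1PR3, a sphingosine 1-phosphate receptor, at 51.4 and 45.2 FPKM. The chemokine scavenger CXCR7 stood at 31.2 and 42.4 FPKM while CXCR4, its signalling counterpart, was silent at 0.0554 and 0.0238 FPKM. The prostaglandin receptor PTGFR was at 23.8 and 29.3 FPKM and the lysophosphatidic acid receptor LPAR3 at 19.5 and 33.0 FPKM. HRH1, the histamine receptor that astemizole is known to block, was low at 0.257 and 0.146 FPKM.

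Genes of the secretory pathway were expressed almost without exception. All 25 genes of protein entry into the endoplasmic reticulum were expressed, with a median of 75.4 FPKM, led by the translocon subunits SEC61G at 772 and 566 FPKM and SEC61B at 608 and 436 FPKM. Of 36 genes of glycosylation and folding 35 were expressed, with a median of 78.3 FPKM. CALR, a lectin chaperone, was at 829 and 822 FPKM, the disulphide isomerase P4HB at 515 and 425 FPKM and the chaperone HSPA5 at 402 and 336 FPKM. The exception was AGR3, listed at 0 in both, next to its paralog AGR2 at 31.3 and 23.2 FPKM. Of 44 genes of the COPII and COPI vesicle coats, their cargo receptors and regulators, 40 were expressed, with ARF1 at 408 and 359 FPKM and TMED3 at 240.4 and 199 FPKM. The coat paralogs COPZ1 and COPZ2 were split, at 138 and 123 FPKM for the first and listed at 0 in both for the second. The entry genes were lower with the shRNA control in 22 of 25 cases, where 89.3% of members at 100 FPKM or more and 65.2% of all expressed members were lower by any amount.

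Proliferation genes were expressed in both controls. Of 27 proliferation genes, 25 were expressed, with a median of 50.7 FPKM. The replication clamp PCNA stood at 303 and 252 FPKM, CDK1 at 235 and 155 FPKM and the G1 cyclin CCND1 at 114 and 172 FPKM. CCND2 was silent at 0.0187 and 0.00534 FPKM, and CDK6 was low at 0.753 and 0.656 FPKM beside its paralog CDK4 at 150.4 and 115 FPKM. EZH2, the histone methyltransferase that the study targets, was at 26.5 and 24.6 FPKM. Its partners in the PRC2 complex were expressed as well, EED at 14.9 and 13.6 FPKM and SUZ12 at 28.4 and 28.6 FPKM.

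Genes that define other lineages were mostly silent. Over 16 lists with 195 distinct measured genes, 121 were silent, 45 low, 19 expressed and 10 outside the 2-fold limit, and 75 were listed at 0 in both libraries. A level of 1 FPKM or more was reached by 33 of them with vehicle and 21 with the shRNA control. Without the liver list the counts were 26 and 20 of 175. No gene of the endothelial, fibroblast, lung, kidney, or granulocyte and mast cell lists was expressed. In the liver list no gene within the limit was expressed. However, 6 of its 20 genes lay outside the limit and so have no class. Of the 20, 7 reached 1 FPKM in either library, and APOA1, outside the limit, reached it in both. The common leukocyte antigen PTPRC, the endothelial adhesion molecule PECAM1, the collagen gene COL1A2 and the muscle filament gene DES were listed at 0 in both. Chromogranins CHGA and CHGB were also listed at 0 in both, and synaptophysin (SYP) stood at 0.864 and 0.510 FPKM.

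Each of the 19 expressed exceptions was looked at by name. The Notch ligand DLL3, which is a surface protein of neuroendocrine tumours, was at 14.6 and 12.1 FPKM, with ENO2 at 1.95 and 2.83 FPKM as the only other expressed gene of 19 in that list. Of 14 gut genes, 3 were expressed, namely the small mucosal protein gene PHGR1, given above, the pepsinogen gene PGC at 18.3 and 13.9 FPKM and the trefoil factor TFF3 at 12.2 and 10.7 FPKM. CDX2, the intestinal transcription factor, was at 0.225 and 0.112 FPKM, and CDX1 and CDH17 were listed at 0 in both. Of the neural and melanocyte lists, MBP was at 12.7 and 13.1 FPKM, the tubulin TUBB3 at 6.07 and 5.43 FPKM, MAP2 at 4.79 and 3.25 FPKM, GAD1 at 1.97 and 1.33 FPKM, MITF at 7.85 and 5.04 FPKM and PMEL at 2.42 and 1.90 FPKM. TYR and SNAP25 were listed at 0 in both.

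The other expressed exceptions included KRT10, whose values are given above. CD68 was at 2.55 and 2.28 FPKM, TAGLN at 2.70 and 1.99 FPKM and PIP, a secretory protein of apocrine glands under androgen control, at 2.02 and 4.31 FPKM. The pancreatic genes PDX1 and PRSS1 were at 1.64 and 1.18 FPKM and at 1.77 and 1.04 FPKM. From the germ cell list came MAGEA4 at 3.63 and 2.51 FPKM and PAGE4, a protein of the prostate as well, at 1.21 and 1.37 FPKM. POU5F1, which has expressed pseudogenes, was outside the limit at 3.95 and 0.765 FPKM. Further genes outside the limit, each at 1 FPKM or more with vehicle, were LYZ at 1.03 FPKM and FABP1 at 1.84 FPKM, both listed at 0 with the shRNA control, and SCGB1D2 at 1.81 and 0.405 FPKM. The remaining liver genes outside it were APOA2 at 5.28 FPKM and TF at 1.24 FPKM with vehicle, both listed at 0 with the shRNA control, and SERPINA1 at 1.396 and 0.125 FPKM. A further few genes reached 1 FPKM in only 1 library: COL1A1 at 1.80 and 0.938 FPKM, ACTA2 at 1.41 and 0.664 FPKM, TTR at 1.36 and 0.510 FPKM, SCGB2A1 at 1.07 and 0.540 FPKM and TFF1 at 0.692 and 1.07 FPKM.

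**Figure D4:**
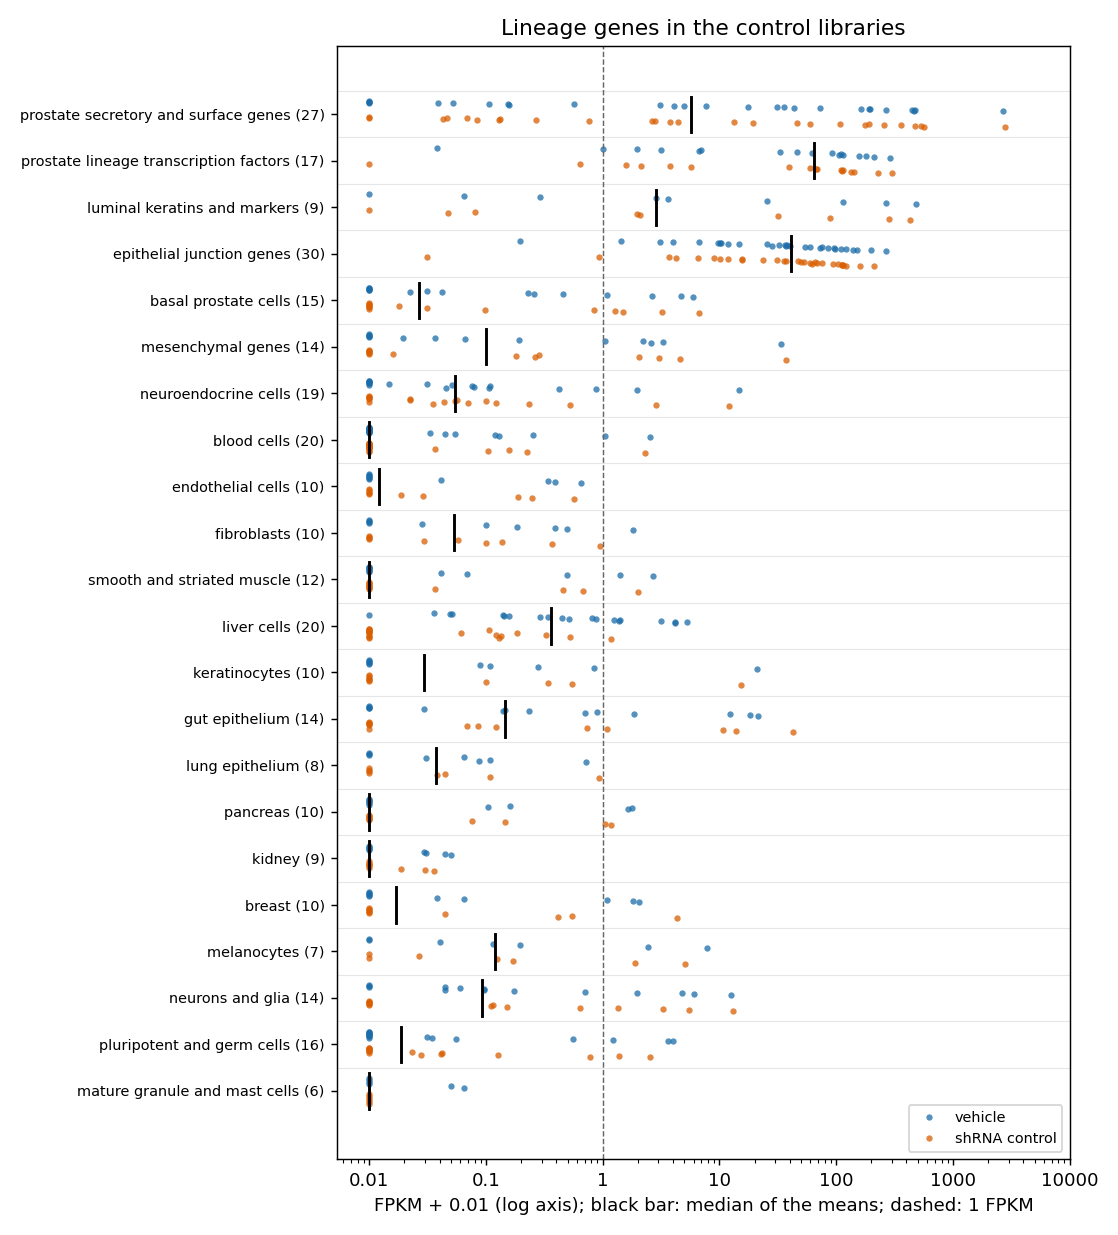
FPKM + 0.01 (x axis, log) of every measured gene in 22 lineage lists (rows, with the number of genes), vehicle above and shRNA control below within each row; the black bar is the median of the means, the dashed line marks 1 FPKM and points at 0.01 are listed at 0. Prostate factors and junction genes have medians of 64.8 and 41.3 FPKM, while the medians of the 16 other lineages lie at or below 0.350.

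Tumour suppressor genes restrain division or growth signals or keep the genome intact. Of 74 distinct genes in 3 lists, 68 were expressed, 4 low, 1 silent and 1 outside the limit, with a median of 10.2 FPKM. All 24 genes of chromatin and DNA repair were expressed. The recombination factor RAD51C stood at 127 and 99.6 FPKM, the ubiquitin ligase adaptor SPOP at 34.8 and 28.1 FPKM and BRCA1 at 16.2 and 16.97 FPKM. The mismatch repair gene MSH6 was at 15.2 and 18.9 FPKM.

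In the cell cycle list 17 of 20 were expressed. RB1, the restraint on S phase entry, stood at 18.2 and 22.0 FPKM and the CDK inhibitor CDKN1B at 53.2 and 49.7 FPKM. CDKN2A was at 40.4 and 25.4 FPKM, a value that cannot separate its 2 products, p16 and ARF. Its neighbour CDKN2B was low, at 0.282 and 0.214 FPKM, as was LZTS1 at 0.270 and 0.392 FPKM. CDKN1A, which encodes the CDK inhibitor p21, was outside the limit at 99.4 and 48.0 FPKM.

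Growth signalling suppressors were expressed in 27 of 30 cases, at a lower median of 7.41 FPKM. The kinase STK11 stood at 32.2 and 23.7 FPKM, NF1 at 10.7 and 14.7 FPKM and SMAD4 at 4.66 and 4.98 FPKM. SMAD3 and SPRY2 were low, at 0.865 and 0.884 FPKM and at 0.629 and 0.848 FPKM. The MAP kinase pathway inhibitor SPRY4 was the 1 silent gene, at 0.0417 and 0.0143 FPKM.

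A further list, of genes reported as promoter-methylated in prostate cancer, held more silent genes. Of 48 measured, 20 were silent, 18 low, 9 expressed and 1 outside the limit, with a median of 0.120 FPKM. The silent share among all protein-coding genes was 28.8%. Listed at 0 in both libraries were EDNRB, CAV1, WIF1, DKK3, HOXD3, ESR1 and GSTM1. EDNRB is an endothelin receptor, CAV1 encodes the scaffold of caveolae, and WIF1 and DKK3 are secreted Wnt antagonists; GSTM1 is absent from the genome of many people. SFRP1, another Wnt antagonist, was at 0.00929 and 0.00795 FPKM, PTGS2, the inducible cyclooxygenase, at 0.0474 and 0.0162 FPKM, and the repellent ligand SLIT2 at 0.0251 and 0.0287 FPKM. Others on the list were clearly expressed. The repair enzyme MGMT was at 77.1 and 66.5 FPKM, TIMP2 at 30.98 and 34.9 FPKM and RASSF1 at 15.6 and 13.0 FPKM. RASSF1 has several promoters, which a value per gene does not separate.

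GSTP1 is the gene of this list most often reported as methylated in prostate cancer, and its enzyme detoxifies electrophiles by joining them to glutathione. It was at 1.13 and 0.0975 FPKM, so only the vehicle library reached 1 FPKM. The shRNA control value is under the silent limit of 0.1 FPKM. GSTP1 is thus classed as low and not silent through the vehicle library alone. Its promoter is shown because of that report, with each CG in capitals, at chr11:67583562-67583861 on the plus strand of GRCh38.p14, from RefSeq.
GSTP1: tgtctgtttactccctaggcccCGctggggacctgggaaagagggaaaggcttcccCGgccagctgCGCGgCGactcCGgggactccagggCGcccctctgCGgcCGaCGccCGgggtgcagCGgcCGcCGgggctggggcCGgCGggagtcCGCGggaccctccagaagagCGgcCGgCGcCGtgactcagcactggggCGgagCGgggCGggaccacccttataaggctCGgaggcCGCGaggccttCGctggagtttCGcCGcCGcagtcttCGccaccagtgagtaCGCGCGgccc
The window of 300 bases holds 36 CG dinucleotides. Methylation was not measured in this study.

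**Figure D5:**
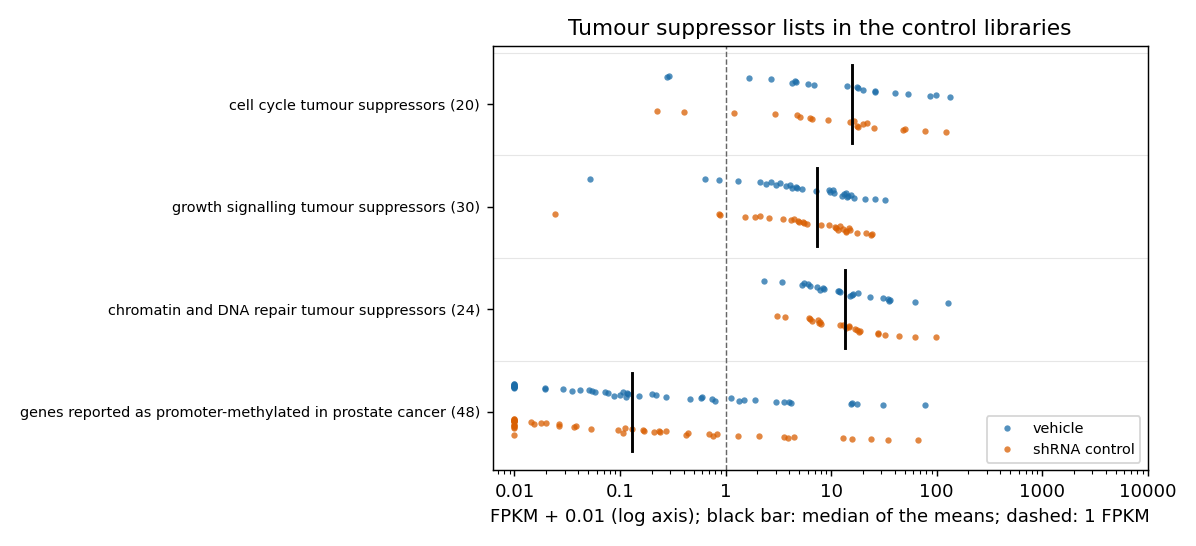
FPKM + 0.01 (x axis, log) of every measured gene in 3 tumour suppressor lists and in the list reported as promoter-methylated (rows, with the number of genes), vehicle above and shRNA control below in each row; the black bar is the median of the means, the dashed line marks 1 FPKM and points at 0.01 are listed at 0. The first 3 medians lie at 15.9, 7.41 and 13.4 FPKM and the last at 0.120.

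Long noncoding RNAs of the list were expressed in 13 of 19 cases, against 18.9% of all 1395 names of that kind. The list was made of transcripts known by name, so a higher share says nothing particular about it. DANCR and GAS5, which host small nucleolar RNAs, stood at 562 and 401 FPKM and at 272 and 198 FPKM, and the nuclear transcript MALAT1 at 201 and 158 FPKM. NEAT1, the scaffold of paraspeckles, was at 8.70 and 5.17 FPKM. Of the prostate cancer transcripts, PCAT1 was at 5.29 and 4.87 FPKM, PCA3, the basis of a urine test, was silent at 0.0702 and 0.0200 FPKM, and PCGEM1 was listed at 0 in both. PCGEM1 is known to be expressed in LNCaP, so its 0, like the value of ETV1, goes against the parental line and may not be a true level. Polyadenylated RNA selection can lose transcripts without a tail, and its effect on these values was not tested. Within the list, 14 genes were lower with the shRNA control and 2 were higher, where 65.2% of all expressed members were lower by any amount.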

How the data were processed

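Polyadenylated RNA of C4-2 cells was sequenced, with 1 library per control condition. Reads were aligned with TopHat2 to hg19 and quantified with Cuffdiff, per the submitters' processing notes, which name no versions. The authors deposited 1 table of FPKM values per gene name, with no counts or totals, so depth and counting error are unknown. Of 5 value columns, only the 2 controls were read. Names that a spreadsheet had turned into dates (27) and short noncoding RNA names (1721), whose length makes FPKM hard to compare, were left out. Of the 26755 names kept, 21114 resolved to a RefSeq symbol and 18805 of these are protein-coding. Members lie within 2-fold on FPKM + 1. Expressed means 1 FPKM or more in both libraries and silent means under 0.1 FPKM in both. The 40 gene lists (889 distinct genes), the classes and the members were chosen with earlier results of these data known. The naming rule took the 40 highest members, the 6 highest of each list, members of a class described, other-lineage genes at 1 FPKM or more in either library, genes nearest to and farthest from the limit with a mean of 5 FPKM or more, and a few genes by name, among them EZH2, EED and SUZ12. From these, the genes printed were chosen after their values were seen, as were some list genes below the 6 highest and the genes of the clusters. Values for KLK2 and KLK3, FOLH1, POU5F1, KRT8, KRT18 and ribosomal protein genes may share reads with copies. A comparison of promoter CpG content between classes was void, since windows matched 74.9% of low members and 80% were needed. Scripts were tested on simulated data and run in Python 3.11.15 with pandas 2.3.3. Some genes are not reported here, although list counts and medians include them.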

Additional observations from a re-analysis of the deposited data

How the results depend on the processing

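When genes under 1 FPKM in both controls were dropped, 12244 genes lay within 2-fold in place of 26623, since fewer genes entered. Under a pseudocount of 0.1 FPKM, rescaling to TPM and a limit of 1.5-fold the number ran from 25689 to 26580. Expressed members numbered 8435 with a minimum of 5 FPKM and 12668 with 0.5 FPKM, and silent members 8028 when only genes listed at 0 in both were counted. The 100 highest members held 41.2% to 42.6% of the sum in either library alone or with short noncoding RNAs kept. Prostate genes at 1 FPKM or more numbered 17 in each library, and other-lineage genes 27 by the mean, 33 with vehicle and 21 with the shRNA control. No paired analysis was possible because each control condition has 1 library. Without replicates or counts, no value here has an error, and a gene near a limit can change class.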
